A study of Mus musculus with 3 samples.

Results

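The 43 genes described here encode the enzymes of glycolysis and the citric acid cycle, the pyruvate dehydrogenase complex that joins both pathways, and the transporters that carry glucose and lactate across the plasma membrane. They were taken by gene symbol from a list of these pathways, and all 43 were found among the 20937 rows of the count table. By role, 4 are transporters, 18 belong to glycolysis, 7 to pyruvate dehydrogenase and its kinases, and 14 to the citric acid cycle with pyruvate carboxylase. RNAseq had been carried out on the whole incisor enamel organ (EO) of male mice aged 4 weeks, with 1 library per genotype. Stim1 cKO carried AmelX-iCre and was Stim1 fl/fl, Stim1 HT carried AmelX-iCre and was Stim1 fl/wt, and Stim1 Ctrl was Stim1 fl/fl without Cre, so every animal had at least 1 floxed allele. Below, HT and Ctrl stand for these controls, and values without names follow the order Stim1 cKO, HT, Ctrl. Stim1 encodes the endoplasmic reticulum calcium sensor that opens store-operated calcium channels. AmelX-iCre is expressed in ameloblasts, the enamel-forming cells, from their secretory stage on, so other cells of the dissected organ keep Stim1, and the question here was how the energy metabolism genes of the organ compared between Stim1 cKO and the grouped controls.

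Glycolysis splits glucose into pyruvate in the cytosol, which lactate dehydrogenase can reduce to lactate for export. Pyruvate dehydrogenase turns pyruvate into acetyl-CoA inside mitochondria, where the citric acid cycle oxidizes it and feeds electrons to respiration. Many glycolytic steps have several isoforms: skeletal muscle uses Pfkm, Pgam2 and Eno3, most other tissues use Pfkl, Pfkp, Pgam1 and Eno1, and neurons and glia use Eno2 and Aldoc.

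The 3 libraries held between 20216507 and 28265960 counts, and with no second animal of any genotype, no value below has a replicate error. The tests used here therefore take their spread from the gap between HT and Ctrl. Stim1 itself was at 72.8 CPM (counts relative to library size, scaled with TMM factors) in Stim1 cKO, 129 in HT and 186 in Ctrl (log2 fold change of -1.11, edgeR adjusted p = 0.106), below both controls but not called. A count per gene does not separate the deleted exons from the rest. Marker genes of several cell types differed between the libraries. The 21 skeletal muscle markers summed to 7841 CPM in Stim1 cKO, 34365 in HT and 43861 in Ctrl, and 19 of them lay below both controls. The 10 neuron markers summed to 1278, 302 and 238 CPM, with 8 above both controls. The 7 photoreceptor markers found in the table summed to 1034, 12.9 and 11.7 CPM, all 7 above both. The 7 ameloblast markers summed to 4457, 31544 and 23273 CPM, with Amelx, the main enamel matrix gene, at 2065, 20016 and 14088. Of these 7, 4 lay below both controls, 2 above and 1 between, with a median log2 fold change of -0.39, and Odam was called higher by DESeq2 at 694, 196 and 75.1 CPM. Ameloblast markers were thus detected in every library, with the lowest summed level in Stim1 cKO. The 6 adipocyte markers summed to 95.7, 471 and 268 CPM and were all below both controls, whereas of the 7 enamel organ epithelium markers, which summed to 2943, 2021 and 1865 CPM, 3 were below and 4 above. No marker in the table was at 0, since the table lists only genes with at least 1 count in every library. The part of these cell types in the results below was not tested, and in a bulk sample fewer cells of a type and less RNA per cell cannot be told apart.

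Most of the energy metabolism genes were lower in Stim1 cKO than in both controls. Reads of the 43 genes made up 0.739% of all counts in Stim1 cKO (95% Wilson interval 0.735% to 0.742%, counting error only), 1.19% in HT and 1.17% in Ctrl. Their summed CPM was 6561 in Stim1 cKO, 12231 in HT and 12820 in Ctrl. In Stim1 cKO, 35 of 43 genes were below both controls (42.1% of all 18702 genes tested were), 7 were above both (43.6% of all genes) and 1, Pfkl, lay between them. More than 2-fold below both controls were 17 of 43 (8.23% of all genes), and more than 2-fold above both were 2 of 43 (19.1% of all genes). The controls were the nearest pair of libraries for 39 of the 43 genes (59% of all genes), the other 4 being Hk2, Pfkl, Aldoc and Ldhb. The shares of all genes include genes with fewer counts than any of the 43, whose lowest count was 186. The median log2 fold change of Stim1 cKO against the grouped controls was -0.96 over the 43 genes and -0.01 over all genes tested.

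None of the 43 genes was called by edgeR's quasi-likelihood test at an adjusted p under 0.01 and a fold change over 2, where 0.0749% of all genes were called, all of them higher. At an unadjusted p under 0.05, edgeR gave 30 of the 43 genes (31.9% of all genes), 27 lower (13.4% of all genes) and 3 higher (18.5% of all genes). Of these, 4 had an edgeR adjusted p under 0.05 with a fold change over 2 (9.68% of all genes): Pfkp and Eno2 were higher and Pgam2 and Idh2 lower. DESeq2, at the same thresholds as edgeR, called 17 of the 43 genes lower (4.71% of all genes) and 2 higher (5.92% of all genes). Below, a gene is said to be called only where DESeq2 called it, and the edgeR adjusted p is given beside it where the gene is described in full.

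**Figure D1:**
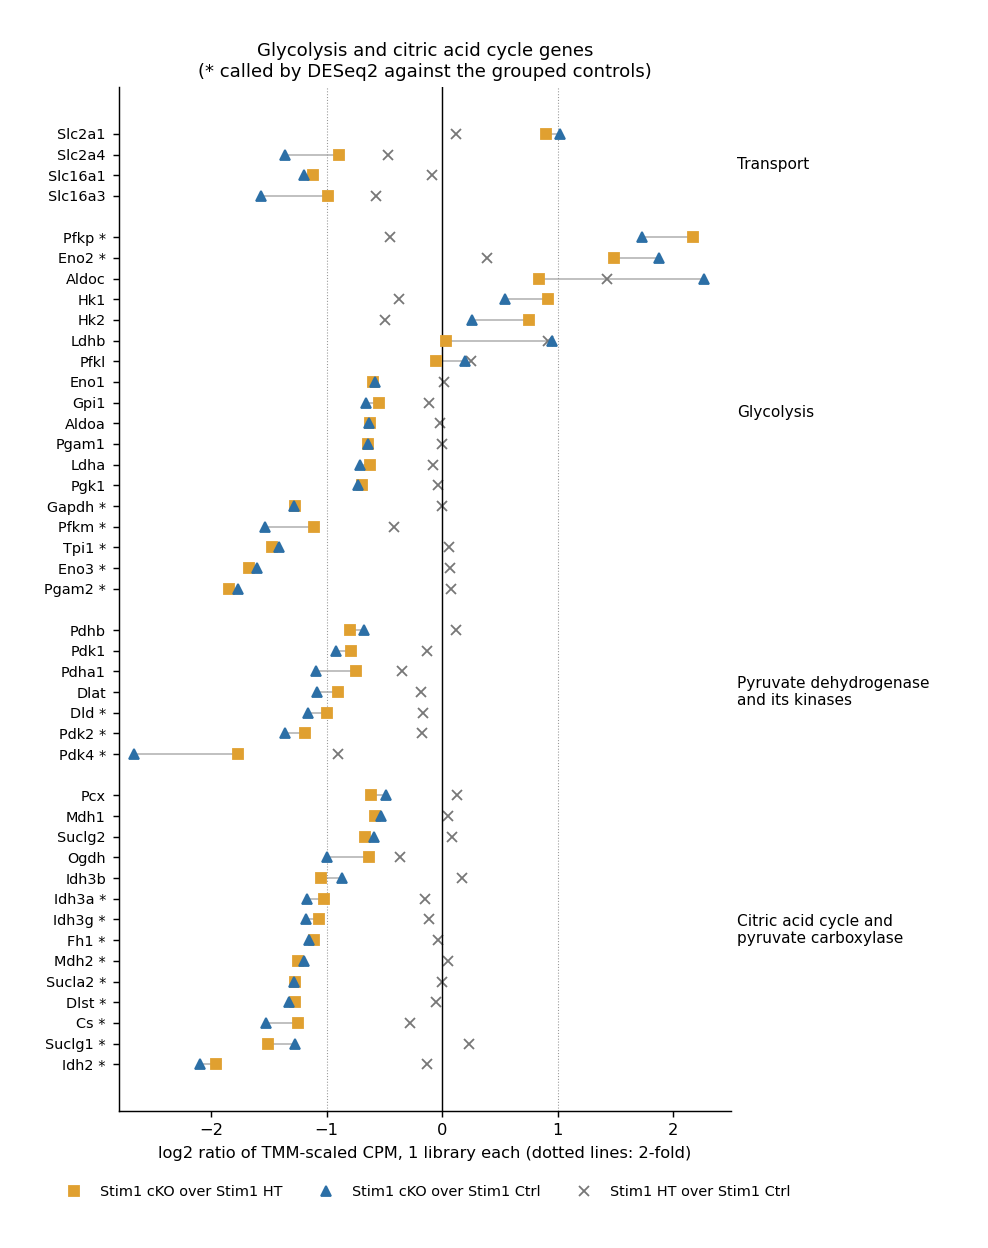
Log2 ratios of TMM-scaled CPM between single libraries for each of the 43 genes, grouped by role, with Stim1 cKO over Stim1 HT as squares, Stim1 cKO over Stim1 Ctrl as triangles and Stim1 HT over Stim1 Ctrl as crosses. All 21 genes of the lower 2 groups have both knockout ratios under 0, while glycolysis spans both sides, from Pgam2 at the bottom to Pfkp at the top.

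The 4 roles differed in spread. All 14 citric acid cycle genes and all 7 genes of pyruvate dehydrogenase and its kinases lay below both controls, with median log2 fold changes of -1.13 and -0.99. Of the 18 glycolysis genes, 11 lay below both controls, 6 above both and 1 between, and the median log2 fold change was -0.62 with a range from -1.81 to 1.93. Of the 4 transporters, 3 lay below and 1 above, with a median of -1.15. DESeq2 called 9 of 14 citric acid cycle genes lower, 3 of 7 in the pyruvate dehydrogenase group, 5 of 18 in glycolysis and none of the transporters, and its 2 higher calls were both in glycolysis. Over all genes tested, 42.1% lay below both controls and 43.6% above both, and DESeq2 called 4.71% lower and 5.92% higher. The difference between roles was not tested, since genes of a pathway are not replicates.

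**Figure D2:**
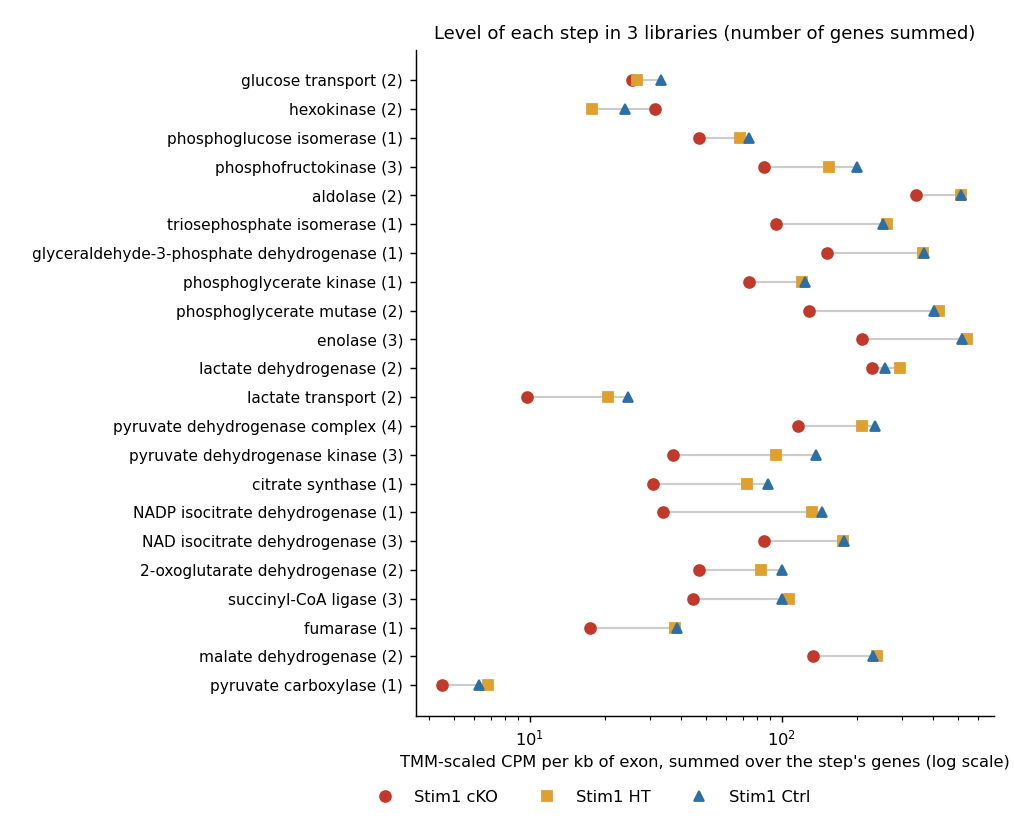
Level of each enzyme or transport step in the 3 libraries, as TMM-scaled CPM per kb of exon summed over the genes of the step, on a log axis. Stim1 cKO (circles) is the lowest library in 21 of 22 steps and the highest in 1, hexokinase.

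Glucose enters cells through GLUT1, encoded by Slc2a1 and present in most tissues, and through GLUT4, encoded by Slc2a4, the insulin-regulated carrier of muscle and fat. Slc2a1 was at 54.0 CPM in Stim1 cKO, 28.9 in HT and 26.6 in Ctrl (log2 fold change of 0.96, edgeR adjusted p = 0.0632). Slc2a4 was at 34.8, 64.5 and 89.4 CPM in the same order (-1.15, edgeR adjusted p = 0.0828). The carriers thus stood on opposite sides of the controls, and neither passed the threshold of edgeR or DESeq2. Per kb of exon, the level summed over both carriers was 25.4 CPM in Stim1 cKO, 26.8 in HT and 33.3 in Ctrl, the smallest gap from the nearer control among the 21 steps that were lower in Stim1 cKO.

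Hexokinase traps glucose in the cell by phosphorylation, with Hk1 as the common form and Hk2 as the insulin-regulated form of muscle and fat. Hk1 was at 135 CPM in Stim1 cKO, 71.7 in HT and 92.9 in Ctrl, and Hk2 at 93.5, 55.7 and 78.3. Both were above both controls, but Stim1 HT and Stim1 Ctrl lay 0.37 and 0.49 apart on the log2 scale, and the edgeR adjusted p-values were 0.160 and 0.324. Hexokinase was the 1 step whose summed level was higher in Stim1 cKO, at 31.5 CPM per kb against 17.7 and 24.0. Gpi1, phosphoglucose isomerase, was at 303, 443 and 479 CPM (log2 fold change of -0.61, edgeR adjusted p = 0.254).

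Phosphofructokinase, the committed step of glycolysis, was split between its subunits. Pfkm, the muscle subunit, was at 216 CPM in Stim1 cKO, 468 in HT and 624 in Ctrl (DESeq2 log2 fold change of -1.34 ± 0.34 SE, adjusted p = 0.00111, edgeR adjusted p = 0.0843). Pfkp, the platelet subunit that also prevails in brain, was at 131, 29.0 and 39.6 CPM (1.92 ± 0.39, DESeq2 adjusted p = 1.75e-05, edgeR adjusted p = 0.0268). It was 4.51-fold above Stim1 HT and 3.31-fold above Stim1 Ctrl. Against Stim1 Ctrl alone, Aldoc at 4.82-fold and Eno2 at 3.67-fold were further above. Pfkl, the liver subunit, was at 73.2, 76.0 and 63.9 CPM and differed less from the controls than they did from each other. Pfkm thus supplied 51.4% of phosphofructokinase counts in Stim1 cKO (95% Wilson interval 50.5% to 52.4%), 81.7% in HT and 85.8% in Ctrl. On GRCm38 with GENCODE M21, Pfkp (chr13:6579768-6648777, minus strand) shares 748 exonic bases with Pitrm1 on the opposite strand, the longest overlap of any of the 43 genes, and the counts are not known to use strand.

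Aldolase and the enzymes of triose phosphates follow. Aldoa, the aldolase of muscle and most other tissues, was at 963 CPM in Stim1 cKO, 1480 in HT and 1496 in Ctrl (log2 fold change of -0.63, edgeR adjusted p = 0.293). Aldoc, the brain form, was at 34.8, 19.4 and 7.23 CPM, but the controls differed by 1.43 on the log2 scale, more than any other of the 43 genes, and its log2 fold change of 1.39 had an edgeR adjusted p of 0.173. Tpi1, triosephosphate isomerase, was at 262, 724 and 695 CPM (DESeq2 log2 fold change of -1.44 ± 0.29 SE, adjusted p = 1.87e-05, edgeR adjusted p = 0.0637). Gapdh, which oxidizes glyceraldehyde 3-phosphate and is often used as a reference transcript, was at 623 CPM against 1507 and 1512 (-1.28 ± 0.29, DESeq2 adjusted p = 0.000158, edgeR adjusted p = 0.0934). Gapdh and Tpi1 were both called lower and both lay over 2-fold under each control, although the controls themselves differed by under 0.1 on the log2 scale.

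Phosphoglycerate mutase moves the phosphate group of 3-phosphoglycerate to the neighbouring carbon. Pgam2, the muscle isoform, was at 91.4 CPM in Stim1 cKO, 329 in HT and 311 in Ctrl (DESeq2 log2 fold change of -1.81 ± 0.30 SE, adjusted p = 8.54e-08, edgeR adjusted p = 0.0357). Pgam1, the form of most other tissues, was at 39.1, 61.0 and 60.9 CPM (-0.65 ± 0.35, DESeq2 adjusted p = 0.221, edgeR adjusted p = 0.148). Both were under both controls, Pgam2 by 3.60-fold and 3.41-fold and Pgam1 by 1.56-fold and 1.56-fold, and the share of Pgam2 in the family was 70.0%, 84.4% and 83.6%. The 250 bases before the start of each gene are shown because this pair serves the same reaction in different tissues. Sequences are RefSeq promoters on GRCm38.p6, read 5′ to 3′ on the strand of the gene, and capitals mark a match to MEF2, the motif of the muscle factor MEF2, to CAGCTG, an E-box bound by myogenic factors, or to ACGTG, the core of the hypoxia response element (CACGT on the other strand).
Pgam2, chr11:5803797-5804046, minus strand: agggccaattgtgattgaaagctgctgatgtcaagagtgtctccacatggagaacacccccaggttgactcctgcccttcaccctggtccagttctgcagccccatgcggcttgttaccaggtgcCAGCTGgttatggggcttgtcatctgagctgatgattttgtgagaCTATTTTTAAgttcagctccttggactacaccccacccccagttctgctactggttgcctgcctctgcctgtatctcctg
Pgam1, chr19:41911621-41911870, plus strand: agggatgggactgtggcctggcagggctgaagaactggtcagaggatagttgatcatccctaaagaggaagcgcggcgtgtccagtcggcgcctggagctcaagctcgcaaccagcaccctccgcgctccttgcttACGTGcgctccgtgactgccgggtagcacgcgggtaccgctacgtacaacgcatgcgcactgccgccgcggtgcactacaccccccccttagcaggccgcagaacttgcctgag
Counting back from the start of the gene, the Pgam2 window holds a MEF2 match at -80 to -71 and a CAGCTG at -125 to -120, and the Pgam1 window an ACGTG at -114 to -110. Promoter windows were matched for 41 of the 43 genes, without Idh3a and Slc2a4. A MEF2 match was found in the windows of 1 of these 41 genes, Pgam2, against 3.42% of all 27025 genes searched, and CAGCTG in 12.2% against 14.7%. A gene was counted if any of its windows held the motif. All motifs were searched on both strands and do not overlap in the windows shown.

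Phosphoglycerate kinase makes ATP in the step before the mutase. Pgk1 was at 167 CPM in Stim1 cKO, 270 in HT and 277 in Ctrl (log2 fold change of -0.71, edgeR adjusted p = 0.174). Its promoter is shown as an example of the ACGTG core, which capitals mark.
Pgk1, chrX:106186850-106187099, plus strand: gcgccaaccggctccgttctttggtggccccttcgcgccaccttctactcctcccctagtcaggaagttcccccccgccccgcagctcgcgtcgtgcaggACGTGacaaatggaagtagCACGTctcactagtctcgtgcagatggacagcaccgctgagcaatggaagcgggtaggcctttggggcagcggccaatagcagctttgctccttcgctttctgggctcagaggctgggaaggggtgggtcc
The core was found at -150 to -146 and, as CACGT, at -131 to -127. At least 1 window held ACGTG in 15 of the 41 genes (36.6%, against 18.5% of all genes). The 15 included genes above both controls, such as Slc2a1 and Hk2, and genes below them, such as Pfkm, Ldha and Slc16a1.

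Enolase forms phosphoenolpyruvate and has a general form, Eno1, a neuronal form, Eno2, and a muscle form, Eno3. Eno3 was at 254 CPM in Stim1 cKO, 811 in HT and 772 in Ctrl (DESeq2 log2 fold change of -1.64 ± 0.29 SE, adjusted p = 5.97e-07, edgeR adjusted p = 0.0518). Eno1 was at 271, 410 and 406 CPM (-0.60 ± 0.30, DESeq2 adjusted p = 0.162, edgeR adjusted p = 0.255). Eno2 was at 54.1, 19.3 and 14.7 CPM (1.67 ± 0.43, DESeq2 adjusted p = 0.00121, edgeR adjusted p = 0.0308). The 3 forms thus took 3 courses: the muscle form was called lower, the neuronal form was called higher, and the general form was lower than both controls without passing either test. Eno3 gave 48.4% of the counts of Eno3 and Eno1 together in Stim1 cKO, 66.4% in HT and 65.5% in Ctrl.

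**Figure D3:**
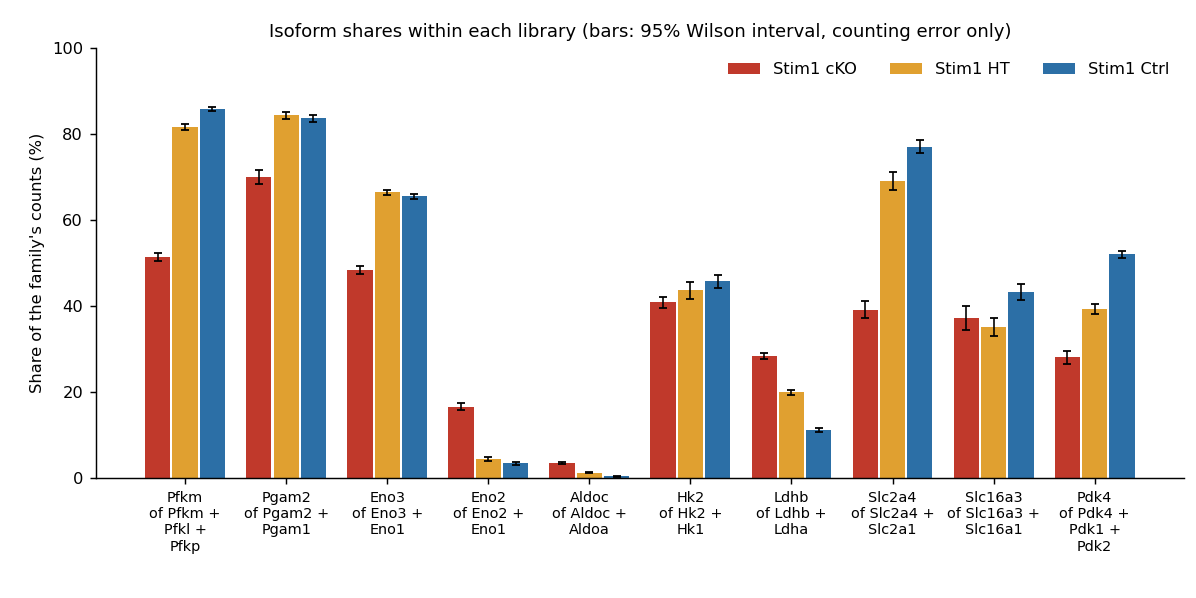
Share of each isoform in the counts of its family within each library, with bars as 95% Wilson intervals that cover counting error only. Pfkm, Pgam2, Eno3 and Slc2a4 take a smaller share in Stim1 cKO than in both controls, Eno2, Aldoc and Ldhb a larger one, and Slc16a3 lies between the controls.

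In the 5 families compared here, muscle isoforms were lower relative to their general counterparts in Stim1 cKO than in both controls, least so for Hk2. The 5 muscle isoforms, Pfkm, Pgam2, Eno3, Slc2a4 and Hk2, had a median log2 fold change of -1.34, and 4 of them lay below both controls. The 6 general isoforms, Pfkl, Pfkp, Pgam1, Eno1, Slc2a1 and Hk1, had a median of 0.39, with 2 below, 3 above and 1 between. The summed CPM of the 5 muscle isoforms was 690 in Stim1 cKO, 1727 in HT and 1875 in Ctrl. That of the 6 general isoforms was 704, 677 and 690. Pfkp, counted among the 6 although it also prevails in brain, was at 131, 29.0 and 39.6 CPM. Hk1, at 135, 71.7 and 92.9 CPM, and Slc2a1, at 54.0, 28.9 and 26.6 CPM, were also above both controls. The sum of the 6 was thus no lower in Stim1 cKO as CPM, but this did not rest on Pfkp alone. Per kb of exon it was lower, at 122 CPM in Stim1 cKO, 137 in HT and 137 in Ctrl. Pfkm, Pgam2 and Eno3 together held 49.7% of the counts of the phosphofructokinase, phosphoglycerate mutase and enolase families in Stim1 cKO, 73.0% in HT and 74.5% in Ctrl. The other counts of these families include Pfkp and the neuronal form Eno2, both called higher. Such shares and ratios are taken within a library and do not depend on the scaling between libraries.

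On the log2 scale, the ratio of Pfkm to Pfkl plus Pfkp was 0.08 in Stim1 cKO, 2.15 in HT and 2.59 in Ctrl, a difference of -2.29 from the mean of the controls. This value joins a lower Pfkm with a higher Pfkp. Pfkp over Pfkl differed from that mean by 1.88, a ratio chosen after the values were seen. For the other muscle isoforms, the difference from the mean of the controls was -2.09 for Slc2a4 over Slc2a1, -1.17 for Pgam2 over Pgam1 and -1.05 for Eno3 over Eno1. In each of these muscle isoform ratios the distance of Stim1 cKO from either control was larger than the distance between the controls, which reached 0.59 for Slc2a4. Hk2 over Hk1 had the same sign but a smaller difference, -0.23, with shares of 40.9%, 43.7% and 45.8%. Skeletal muscle markers moved with these isoforms: Ckm, muscle creatine kinase, was at 460 CPM in Stim1 cKO, 2060 in HT and 2542 in Ctrl, and Acta1, skeletal muscle actin, at 973, 7398 and 9791. The 4.48-fold and 5.53-fold gaps of Ckm were larger than those of Pgam2, and Mb, which encodes myoglobin, stood the other way at 403, 148 and 228 CPM. For the neuronal and glial forms, Eno2 over Eno1 differed by 2.27 and Aldoc over Aldoa by 2.18, alongside the neuron and photoreceptor markers given above. The 6 glia markers summed to 749, 1364 and 1839 CPM, with 3 below and 2 above both controls.

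Lactate dehydrogenase links pyruvate and lactate, with Ldha prevailing in muscle and Ldhb in heart and brain. Ldha was at 414 CPM in Stim1 cKO, 639 in HT and 675 in Ctrl (log2 fold change of -0.67, edgeR adjusted p = 0.233). Ldhb was at 164, 160 and 84.9 CPM, so Stim1 cKO and Stim1 HT were close and Stim1 Ctrl was low (0.42, edgeR adjusted p = 0.528). The share of Ldhb in the counts of both was 28.4%, 20.0% and 11.2%, highest in Stim1 cKO and lowest in Stim1 Ctrl, with the controls on this log2 ratio 0.99 apart. Lactate leaves through the monocarboxylate transporters MCT1, encoded by Slc16a1, and MCT4, encoded by Slc16a3. Slc16a1 was at 28.9, 62.5 and 66.3 CPM (-1.16, edgeR adjusted p = 0.0521, DESeq2 adjusted p = 0.0104), and Slc16a3 at 17.1, 34.0 and 50.6 CPM (-1.31, edgeR adjusted p = 0.0733, DESeq2 adjusted p = 0.0252). Both carriers were below both controls, and neither was called.

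The 4 subunit genes of pyruvate dehydrogenase lay close together. Pdha1 and Pdhb encode the E1 component, which decarboxylates pyruvate, Dlat the E2 acetyltransferase and Dld the E3 dihydrolipoamide dehydrogenase that is shared with 2-oxoglutarate dehydrogenase. Pdha1 was at 186 CPM in Stim1 cKO, 312 in HT and 397 in Ctrl, Pdhb at 108, 188 and 173, and Dlat at 70.0, 131 and 148. Their log2 fold changes of -0.93, -0.74 and -0.99 had edgeR adjusted p-values between 0.0859 and 0.150 and were not called. Dld was at 90.0, 180 and 201 CPM and was called lower (DESeq2 log2 fold change of -1.09 ± 0.32 SE, adjusted p = 0.0066, edgeR adjusted p = 0.0793). None of these 4 genes was on the other side of the controls.

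The kinases that switch the complex off by phosphorylation were also below both controls. Pdk4, a kinase induced by fasting and fatty acids in muscle and heart, was at 41.6 CPM in Stim1 cKO, 141 in HT and 264 in Ctrl, which is 3.40-fold and 6.35-fold lower than the controls (DESeq2 log2 fold change of -2.30 ± 0.45 SE, adjusted p = 8.95e-06, edgeR adjusted p = 0.0511). The controls were 0.90 apart on the log2 scale, and its log2 fold change was -1.76 without Stim1 Ctrl and -2.68 without Stim1 HT. Pdk2 was at 62.2, 142 and 160 CPM (-1.29 ± 0.33, DESeq2 adjusted p = 0.00122, edgeR adjusted p = 0.0553) and Pdk1, which responds to hypoxia, at 44.2, 76.1 and 83.2 (log2 fold change of -0.85, edgeR adjusted p = 0.0980). Per kb of exon, the summed level of the 3 kinases was 37.2 CPM against 94.9 and 136, a wider gap than that of the 4 subunits at 117 against 208 and 236. Pdk4 held 28.1% of the kinase counts in Stim1 cKO, 39.3% in HT and 52.0% in Ctrl.

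In the citric acid cycle, Idh2 was the furthest below the controls. Cs, citrate synthase, was at 178 CPM in Stim1 cKO, 422 in HT and 511 in Ctrl (DESeq2 log2 fold change of -1.40 ± 0.32 SE, adjusted p = 0.000221, edgeR adjusted p = 0.0682). Idh2, the mitochondrial isocitrate dehydrogenase that makes NADPH, was at 87.4, 340 and 373 CPM, or 3.89-fold and 4.27-fold lower than the controls (-2.04 ± 0.31, DESeq2 adjusted p = 2.38e-09, edgeR adjusted p = 0.0311). It had the smallest DESeq2 adjusted p of the 43 genes. The 3 subunit genes of the NAD-linked isocitrate dehydrogenase were less far below: Idh3a was at 107, 219 and 242 CPM, Idh3b at 125, 259 and 229, and Idh3g at 73.5, 154 and 166. Idh3a and Idh3g were called lower (DESeq2 adjusted p = 0.00452 and 0.0044, edgeR adjusted p = 0.0799 and 0.0688). Idh3b was not called (DESeq2 adjusted p = 0.0146, edgeR adjusted p = 0.106). Idh2 gave 22.2% of all counts of the 4 isocitrate dehydrogenase genes in Stim1 cKO, 35.0% in HT and 36.9% in Ctrl, a ratio chosen after the values were seen.

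Of the 2-oxoglutarate dehydrogenase complex, Ogdh, the E1 component, was at 195 CPM in Stim1 cKO, 301 in HT and 389 in Ctrl (log2 fold change of -0.83, edgeR adjusted p = 0.171). Dlst, its E2 component, was at 110, 267 and 276 CPM and was called lower (DESeq2 log2 fold change of -1.31 ± 0.31 SE, adjusted p = 0.000312, edgeR adjusted p = 0.0601). Succinyl-CoA ligase pairs Suclg1 with either Sucla2, the ATP-forming subunit prominent in muscle and brain, or Suclg2, the GTP-forming one. Suclg1 was at 63.0, 179 and 152 CPM (-1.40 ± 0.33, DESeq2 adjusted p = 0.000303, edgeR adjusted p = 0.0509) and Sucla2 at 89.9, 218 and 219 (-1.29 ± 0.31, DESeq2 adjusted p = 0.000468, edgeR adjusted p = 0.0580), both called lower. Suclg2 was at 38.4, 61.0 and 57.6 CPM and was not called (DESeq2 adjusted p = 0.237). Sucla2 thus held 70.1% of the counts of Sucla2 and Suclg2 in Stim1 cKO, 78.1% in HT and 79.2% in Ctrl, a pair also chosen after the values were seen.

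Fumarase and malate dehydrogenase close the cycle. Fh1, fumarase, was at 59.1 CPM in Stim1 cKO, 128 in HT and 131 in Ctrl (DESeq2 log2 fold change of -1.14 ± 0.32 SE, adjusted p = 0.00458, edgeR adjusted p = 0.0632). Mdh2, the mitochondrial malate dehydrogenase, was at 161, 382 and 368 CPM (-1.23 ± 0.30, DESeq2 adjusted p = 0.000582, edgeR adjusted p = 0.0725). Mdh1, its cytosolic counterpart in the malate-aspartate shuttle, was at 227, 338 and 327 CPM and was not called (log2 fold change of -0.55, edgeR adjusted p = 0.268). The share of Mdh2 in the counts of both was 41.5%, 53.0% and 52.9%, again a pair chosen after the values were seen. Fh1 and Mdh2 were thus called lower and Mdh1 was not. Pcx, pyruvate carboxylase, which refills oxaloacetate, was at 4.49 CPM per kb in Stim1 cKO, 6.87 in HT and 6.30 in Ctrl (log2 fold change of -0.55, edgeR adjusted p = 0.205).

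Between the controls, Stim1 HT and Stim1 Ctrl differed by a median log2 ratio of -0.04 over the 43 genes, with a range from -0.90 for Pdk4 to 1.43 for Aldoc. Over 2-fold apart was only Aldoc among the 43 genes, against 13.5% of all genes tested. These shares are not like for like. Of the 43 genes none had under 186 counts in a library, whereas 18702 genes were tested and 14977 had a mean of at least 50 counts. The muscle forms Pfkm and Slc2a4 were lower in Stim1 HT than in Stim1 Ctrl by 0.42 and 0.47 on the log2 scale, whereas Pgam2 and Eno3 were higher by 0.08 and 0.07. With 1 library each, these ratios have no test.

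Genes of the same pathways outside the 43 were read from lists drawn up by function. edgeR called none of the genes in these lists or in the fuel pathway lists below. Over all genes tested, 42.1% were below both controls, 43.6% were above both, and DESeq2 called 4.71% lower. Among 21 further citric acid cycle and shuttle genes, 16 were below both controls and 2 above both, with a median log2 fold change of -0.60, and DESeq2 called 5 lower. Of the succinate dehydrogenase genes, Sdha at 193, 363 and 417 CPM and Sdhd at 71.0, 190 and 154 were called lower (DESeq2 adjusted p = 0.0091 and 0.00147), whereas Sdhb at 95.4, 181 and 132 and Sdhc at 118, 215 and 190 were not. Cytosolic Idh1 was at 99.9, 95.7 and 78.4 CPM and malic enzyme Me1 at 69.8, 60.9 and 62.1. Both cytosolic enzymes were thus above both controls, unlike Mdh1, and neither was called.

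Further glycolysis and control genes were split, with 8 of 21 below and 12 above both controls, a median of 0.26 and 2 called lower. Pkm, the main pyruvate kinase, was at 780 CPM in Stim1 cKO, 1024 in HT and 1047 in Ctrl (log2 fold change of -0.41, edgeR adjusted p = 0.455). The 2 called lower were Fbp2, the muscle fructose bisphosphatase, at 9.29, 91.6 and 108 CPM, and Gpd1, cytosolic glycerol 3-phosphate dehydrogenase, at 23.9, 158 and 119. Pfkfb2 and Pfkfb3, which set the phosphofructokinase activator fructose 2,6-bisphosphate, were at 25.4, 8.73 and 7.81 CPM and at 25.8, 20.6 and 22.5 (edgeR adjusted p = 0.0458 and 0.529), and DESeq2 called neither. Of 7 tested pyruvate entry genes, 4 were below both controls and 1 above, with a median of -0.19 and no call, and the mitochondrial pyruvate carrier genes Mpc1 at 35.4, 45.6 and 35.0 CPM and Mpc2 at 63.2, 84.8 and 43.1 lay between the controls. The carrier brings pyruvate to the dehydrogenase complex, whose 4 subunit genes among the 43 were all below both controls.

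**Figure D4:**
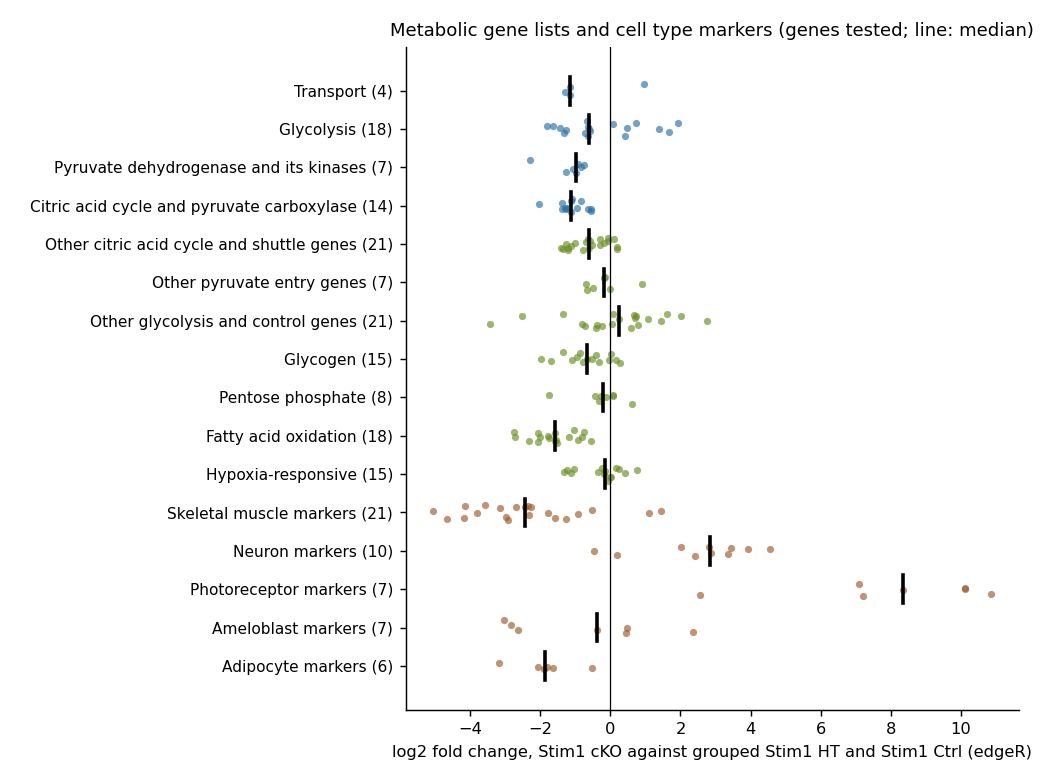
Log2 fold change of Stim1 cKO against the grouped controls from edgeR for each tested gene (points) and the median (line) of the 4 roles of the 43 genes (blue), other metabolic lists (green) and cell type markers (brown). Medians of the metabolic lists run from -1.58 for fatty acid oxidation to 0.26 for other glycolysis genes, and those of the markers from -2.44 for skeletal muscle to 8.35 for photoreceptors.

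Fuel pathways next to the 43 genes ranged widely. The shares over all genes tested were 42.1% below both controls, 43.6% above both and 4.71% called lower by DESeq2. All 18 fatty acid oxidation genes were below both controls, with a median log2 fold change of -1.58, and DESeq2 called 12 lower, among them Fabp3, the fatty acid binding protein of heart and muscle, at 41.3 CPM in Stim1 cKO, 260 in HT and 298 in Ctrl. Hadha, a subunit of the mitochondrial trifunctional protein, was at 102, 375 and 477 CPM. Of 15 glycogen genes, 12 were below both controls with a median of -0.68, and the 2 called lower were Pygm, muscle glycogen phosphorylase, at 152, 424 and 570 CPM, and Pgm1, phosphoglucomutase, at 43.1, 149 and 193. The 8 pentose phosphate genes had a median of -0.20, with 4 below and 2 above both controls and H6pd called lower at 23.6, 64.7 and 95.8 CPM. The 15 hypoxia-responsive genes had a median of -0.16, with 7 below and 4 above both controls, and the 1 called was P4ha2, a collagen prolyl hydroxylase, lower at 35.5, 77.6 and 99.8 CPM. Vegfa, a common hypoxia target, was at 87.5, 59.4 and 72.1 CPM (edgeR adjusted p = 0.329).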

How the data were processed

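Total RNA of whole enamel organs, 1 sample per genotype, was sequenced as paired-end reads on a HiSeq instrument. The methods name a poly-A directional library kit and the labels a SMARTER kit. The authors checked reads with FastQC, removed low-quality reads, aligned with STAR and deposited raw counts per gene symbol, without normalization. The version of STAR, the genome build, the annotation, the counting tool and its strand setting are not given in the sources used here. Every library had at least 1 count in each of the 20937 rows listed. Symbols of 25 rows had turned into dates, and 2 symbols appeared more than once. These rows were kept as separate genes, and none was among the 43.

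Stim1 cKO and the controls taken as a group were compared over all genes with edgeR 4.0.16 in R 4.3.3 (TMM factors, filterByExpr, quasi-likelihood test, Benjamini-Hochberg adjustment over 18702 genes), with the study's thresholds for a call, an adjusted p under 0.01 with a fold change over 2. All 43 genes passed the filter, with 186 to 38920 counts. The common dispersion was 0.106 with 1 residual degree of freedom, which comes from 2 controls of different genotype. DESeq2 1.42.0, the tool of the study, was an alternative. The other alternatives were RLE, upper-quartile and library size scaling, scaling without mitochondrially encoded, ameloblast or skeletal muscle genes, removal of the filter, a stricter filter (mean of 50 counts or more), other thresholds, and each control alone. Levels are TMM-scaled CPM, where 3 counts correspond to 0.117 to 0.152 CPM. Shares carry 95% Wilson intervals, which cover counting error only. Exon lengths, the union of the exons of a gene, came from GENCODE M21 on GRCm38, and promoters from RefSeq on GRCm38.p6. Python 3.11.15 with pandas 2.3.3 and scipy 1.17.1 was used. Of the 43 genes, 11 overlap a gene on the opposite strand and 1, Pfkm, a gene on the same strand. The 9 near-identical copies in the table, such as Aldoart1, had at most 25 counts. The members and lists were chosen with earlier results of these data known. From the other lists, genes called and the 3 highest and 3 lowest log2 fold changes at a mean of at least 50 counts could be named, beside a few set by symbol. A gene that this rule allows is not reported here.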

Additional observations from a re-analysis of the deposited data

How the results depend on the processing

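Of the 43 genes, 42 kept the direction of their log2 fold change in all 12 alternatives that refitted it, and Pfkl turned from 0.06 to -0.056 without Stim1 Ctrl (0.18 without Stim1 HT). The number of the 43 genes called was 0 with edgeR, 19 with DESeq2, 19 with DESeq2 and shrunken fold changes, 2 without a filter on low counts (Pfkp and Eno2, both higher) and 4 at an adjusted p under 0.05, and it stayed at 0 under the other 8 alternatives. Over all genes the calls were 14 as reported, 50 with RLE, 138 with upper-quartile scaling, 6 with library size only, 907 without a filter, 6 at a mean of at least 50 counts, 1811 at an adjusted p under 0.05, 1987 with DESeq2 and 1991 with shrunken fold changes. Of the calls, 125 of 138 were higher with upper-quartile scaling and 1107 of 1987 with DESeq2, against 14 of 14 as reported.

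With library size only, the median of all genes rose to 0.25 and the medians by role were -0.89 for transport, -0.36 for glycolysis, -0.73 for pyruvate dehydrogenase and its kinases and -0.87 for the citric acid cycle. With upper-quartile scaling it rose to 0.12, and the medians were -0.49 for glycolysis and -1.0 for the citric acid cycle. At a mean of at least 50 counts, the citric acid cycle was at -1.02 and glycolysis at -0.51. The median of glycolysis was -0.65 without a filter, and with 1 control left out it was between -0.65 and -0.61. The ratio of Slc16a3 to Slc16a1 differed by -0.12 from the mean of the controls, by 0.13 from Stim1 HT alone and by -0.37 from Stim1 Ctrl alone. The causes were not tested. No paired analysis was possible because each genotype has 1 library and the labels give no replicate numbers.

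With 1 library per genotype, differences between mice of one genotype cannot be told apart from differences between genotypes, and both tests take their spread from controls that differ in genotype. The lowest count of the 43 genes in any library was 186.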
